A study of Mus musculus with 6 samples.

Results

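Gamma-delta T cells, lymphocytes whose antigen receptor pairs a gamma with a delta chain, were picked out of 6 single-cell RNA-seq libraries as 73 of the 51633 cells that passed the filters. The cells were chosen by raw UMIs (unique molecular identifiers, so that each count stands for a single captured transcript). A member held at least 250 genes and at most 5% mitochondrial UMIs, at least 2 UMIs of Cd3d, Cd3e and Cd3g together, at least 2 of Trdc (the constant region of the delta chain) and at least 1 of Tcrg-C1 and Tcrg-C2 together (constant regions of the gamma chain). It held none of Cd8a, Cd8b1, Cd4, Foxp3 or Cd79a and at most 5 of the macrophage genes Lyz2, C1qa, C1qb and C1qc together. Of 14322 cells with the Cd3 UMIs, 217 held 2 Trdc UMIs, 132 of these also a gamma chain UMI, 86 of these no Cd8 UMI, 82 no Cd4, Foxp3 or Cd79a UMI, and 73 passed the macrophage limit.

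The libraries came from 6- to 8-week-old female C57BL/6 mice that carried orthotopic tumors of KPCA, a mouse ovarian cancer line proficient in homologous recombination, per the study's methods. The groups were control (solvent and rat IgG), 2DG (2-Deoxy-D-glucose, injected once tumors were palpable), 2FF (2F-Peracetyl-Fucose, a fucose analog given by gavage, with the tumor cells pretreated), anti-PD-L1 antibody, and anti-PD-L1 combined with 2DG or with 2FF, in that order. Each group was 1 mouse and 1 library, so no difference between treatments was tested, and control and anti-PD-L1 serve both drugs. Tissue, age and the 2FF compound are stated differently in the sources. The labels name lymph node and the series' design mentions both young and aged animals. For 2FF the labels name 2F-Peracetyl-Fucose and the study's text 2-fluoro-L-Fucose. In the order just given the libraries held 7, 21, 15, 6, 10 and 14 gamma-delta T cells, with 43618, 129304, 74713, 33920, 50863 and 80123 UMIs, out of library totals of 61859753 to 73885214 UMIs. The control library had 452 T cells in all, against 1877 to 2960 in the other 5 libraries. Of 56687 distinct barcodes 389 occurred in more than 1 library, and 1 of the 73 cells shared its barcode with a cell of another library that was not a gamma-delta T cell (r = 0.457 between their log counts). None of the 73 was among the 3896 cells marked as likely doublets.

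Gamma-delta T cells leave the mouse thymus in waves, each with a preferred pair of variable segments. One branch makes interleukin 17 and responds to interleukins 1, 7 and 23, and its fetal wave is known for joining the Vgamma6 and Vdelta1 segments. The other branch makes interferon gamma under Tbx21 and shares genes of cytotoxicity and NK receptors with CD8 T and NK cells. Both branches have been found in mouse tumors, and in several tumor models interleukin 17 from these cells draws in neutrophils.

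The segments of the fetal wave are shown because they separate the cells described next. The last coding exon of Trdv4, the gene of the Vdelta1 segment, lies at chr14:54075217-54075515 on the plus strand of GRCm38. The last 300 bases of Tcrg-V6, the gene of Vgamma6, lie at chr13:19190630-19190929, also plus. The capitals mark the codon of the conserved cysteine at the start of the third hypervariable loop, where the segment is joined to the rest of the chain (coordinates and sequences from GENCODE M21).
Trdv4: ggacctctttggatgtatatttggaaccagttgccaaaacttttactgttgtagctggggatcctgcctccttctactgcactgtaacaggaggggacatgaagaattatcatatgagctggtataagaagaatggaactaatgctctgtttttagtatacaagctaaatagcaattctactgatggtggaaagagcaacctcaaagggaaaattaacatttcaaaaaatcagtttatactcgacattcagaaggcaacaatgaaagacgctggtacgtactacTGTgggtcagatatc
Tcrg-V6: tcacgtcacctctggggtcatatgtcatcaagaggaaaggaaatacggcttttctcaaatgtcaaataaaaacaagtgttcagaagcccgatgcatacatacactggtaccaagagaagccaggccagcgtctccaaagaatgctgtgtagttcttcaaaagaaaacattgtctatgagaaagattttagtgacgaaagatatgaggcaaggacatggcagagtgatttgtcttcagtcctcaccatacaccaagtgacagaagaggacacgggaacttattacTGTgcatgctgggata

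The constant regions that the selection used are printed over the first 90 bases of their first coding exon, with capitals at the 13 positions where the 3 genes are not all alike. Tcrg-C1 lies at chr13:19214103-19214192 on the plus strand, Tcrg-C2 at chr13:19307462-19307551 on the minus strand and Tcrg-C4 at chr13:19344558-19344647 on the plus strand.
Tcrg-C1: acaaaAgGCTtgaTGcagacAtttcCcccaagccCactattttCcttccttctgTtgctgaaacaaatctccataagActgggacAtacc
Tcrg-C2: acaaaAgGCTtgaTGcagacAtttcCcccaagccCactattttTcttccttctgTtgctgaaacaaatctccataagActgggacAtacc
Tcrg-C4: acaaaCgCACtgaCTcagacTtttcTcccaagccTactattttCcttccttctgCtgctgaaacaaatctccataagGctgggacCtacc

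Tcrg-C1 and Tcrg-C2 were identical at 321 of the 330 aligned bases of that exon (97.3%), and Tcrg-C4 at 82.1% and 81.5% against them. Over the whole transcripts, whose 3′ ends the kit reads, the identities were 94.1% between Tcrg-C1 and Tcrg-C2 and 65.3% and 64.4% for Tcrg-C4. Counts of Tcrg-C1 and Tcrg-C2 are uncertain where a read cannot tell the copies apart, and how many reads that concerns was not tested. Among the 73 cells 37 held Tcrg-C1 alone, 19 both and 17 Tcrg-C2 alone. Outside the selection, a Tcrg-C1 UMI was found in 2.39% of CD8 T cells but a Tcrg-C2 UMI in 14.4% of them, so the 17 cells rest on the less particular gene.

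The label was checked on genes that the selection did not use. Tcrg-C4, a further gamma constant region, had a UMI in 36 of the 73 cells (49.3%), against 3.34% of CD8 T, 1.73% of CD4 T and 6.17% of NK cells. Trac, the constant region of the alpha chain, had a UMI in 18 of 73 (24.7%), against 89.7% of CD8 T cells. Trbc1 had one in 36 (49.3%) and Trbc2 in 60 (82.2%) of the 73, against 55.2% and 94.9% of CD8 T cells. Alpha chain UMIs were thus less frequent than in CD8 T cells but present, and beta chain UMIs were common. Cd163l1, a scavenger receptor gene used as a marker of the interleukin 17 branch, and Il17a, the gene of interleukin 17A, had UMIs in 24 and 18 of the 73 cells, so these markers describe a minority of the members.

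The 73 cells fell into 2 kinds with almost nothing between them. A cell was called type 17 with at least 2 UMIs over a list of 6 genes that includes Cd163l1, Il17a, Il17f, Il23r and Blk, and type 1 with at least 2 of Ifng, Tbx21, Eomes, Gzmb, Nkg7 and Ccl5 together. By these lists 23 cells were type 17 alone, 47 type 1 alone, 2 both and 1 neither. The 23 type 17 cells held 7 to 48 UMIs of their own list (median 20) and 0 or 1 of the other. The 47 type 1 cells held 3 to 140 UMIs of their own list (median 20) and 0 or 1 of the other. The 2 cells counted under both held 10 and 22 type 17 UMIs and 2 type 1 UMIs each, which places them with the type 17 cells. Depth was similar, with a median of 4837 UMIs per type 17 cell and 5610 per type 1 cell.

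**Figure D1:**
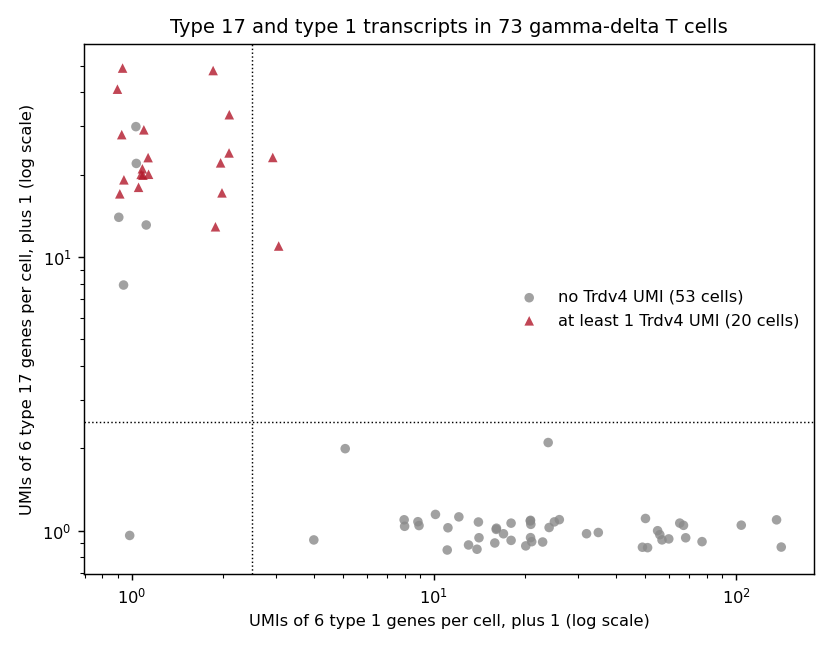
Each point is 1 of the 73 cells, by its UMIs of the 6 type 1 genes (x axis) and of the 6 type 17 genes (y axis), each plus 1 on a log scale with a small random offset; dotted lines mark the limit of 2 UMIs, and red triangles are the 20 cells with a Trdv4 UMI. All the triangles lie among cells with at least 10 type 17 UMIs, and the 47 type 1 cells lie along the bottom with at most 1 type 17 UMI.

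Within the type 17 cells Il23r, the receptor subunit for interleukin 23, had a UMI in 23 of 23 cells, Cd163l1 in 21, Blk (a Src family kinase) in 17 and Il17a in 16. Il17f had no UMI in any of the 73 cells. Nkg7, a gene of cytotoxic granules, was at 0 in the 23 type 17 cells and present in 46 of the 47 type 1 cells. In the type 1 cells Ccl5, a chemokine, was found in 42, Tbx21 in 21, Ifng in 18, Gzmb in 13 and Eomes in 11. Those shares describe how the cells were sorted into kinds and carry no test.

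The receptor segments, which neither the selection nor the lists used, differed between the kinds. Trdv4 had a UMI in 18 of 23 type 17 cells (78.3%, exact binomial 95% interval 56.3 to 92.5%) and in 0 of 47 type 1 cells (0 to 7.55%). The 18 cells were 3 in every library, of 3, 4, 5, 3, 4 and 4 type 17 cells, and both cells that were counted under both lists also held it. Tcrg-V6 had a UMI in 7 of 23 type 17 cells and 0 of 47 type 1 cells, from 4 of the 6 libraries. Either segment was seen in 19 of 23 type 17 cells and both segments in 6. The intervals cover counting error only and treat cells of a library as independent. The kit reads the 3′ end of a transcript, far from the variable segment, so a cell without a segment's UMI is not shown to lack it. Trdv4 is not limited to these cells, since it had a UMI in 13.2% of NK cells, against 0.0939% of CD8 T cells, and Trdc itself in 8.98% of NK cells. Whether a segment's UMI came from a rearranged receptor chain was not tested.

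The type 1 cells were mixed in their segments. Tcrg-V1 had a UMI in 7 of 47, Tcrg-V4 in 4, Trdv5 in 4, Tcrg-V3 in 3 and Trdv2-2 in 3, and these 5 genes were at 0 in the 23 type 17 cells. Trgv2, a segment of the Tcrg-C2 cluster, had a UMI in 20 of 47 type 1 and 6 of 23 type 17 cells, but also in 15.3% of CD8 T cells. Tcrg-C1 had a UMI in 21 of 23 type 17 cells and 32 of 47 type 1 cells, and Tcrg-C2 in 8 and 28. Of the 17 members with Tcrg-C2 alone 15 were type 1 and 4 held Trac. Trac had a UMI in 6 of 23 type 17 cells (26.1%) and 12 of 47 type 1 cells (25.5%), shares that differed by less than their counting error.

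**Figure D2:**
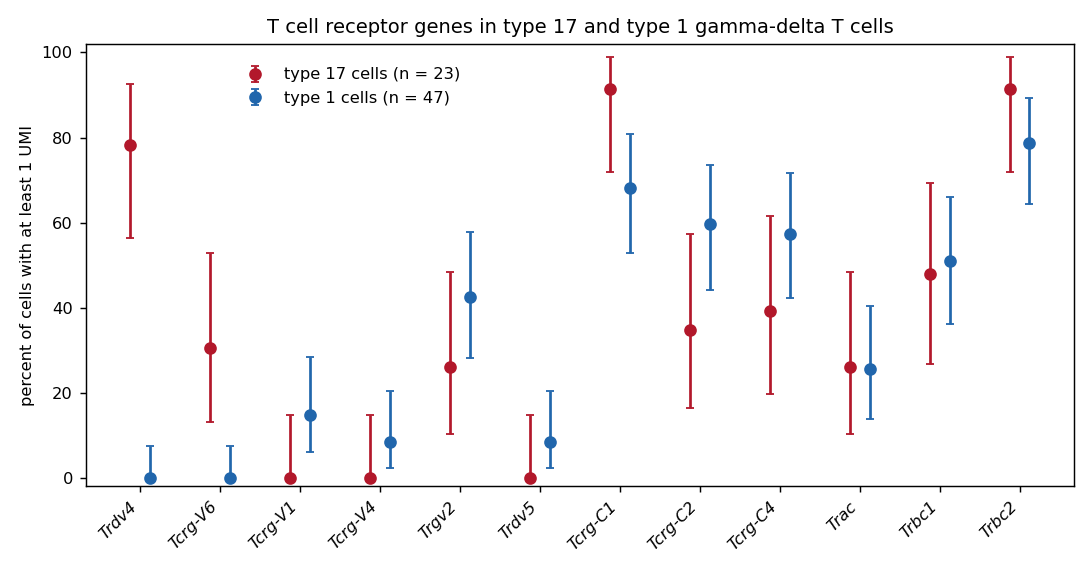
Percent of type 17 cells (red, n = 23) and type 1 cells (blue, n = 47) with at least 1 UMI of each receptor gene; points are shares over all 6 libraries and bars exact binomial 95% intervals for counting error. Trdv4 stands at 78.3% against 0%, while Trac, Trbc1 and Trbc2 have overlapping intervals.

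Beyond the lists, the kinds differed in many genes, given here as a description of genes with at least 20 UMIs, 5 cells and 4 libraries in the higher kind. Rora, a nuclear receptor of the interleukin 17 program, had 511 UMIs in 23 type 17 cells and 44 in 47 type 1 cells, or 4326 against 158 CPM (UMIs of the gene per 1000000 UMIs of the group). Adam12, a membrane protease, had 160 UMIs in 23 type 17 cells and none in type 1 cells, at least 126-fold higher against a floor of 3 UMIs. Il1r1, the interleukin 1 receptor, had 147 UMIs in 21 cells against none, and Cpm, a membrane carboxypeptidase, 148 in 19 cells against none. Igf1r, the insulin-like growth factor receptor, had 192 UMIs in 22 type 17 cells and 3 in type 1 cells. Zbtb16, the factor PLZF of innate-like T cells, had 176 UMIs in 22 type 17 cells and 35 in 5 type 1 cells. Icos, a costimulatory receptor, stood at 635 against 82.6 CPM, and Itgae, the integrin CD103, at 203 against 18.0 CPM. All of these genes were higher in type 17 cells in each of the 6 libraries. Dissociation and stress genes moved with the kinds too, 16 of 20 with a higher level in type 17 cells (median 0.65 log2 units), against 1579 of 3568 genes (median -0.10) among all with at least 20 UMIs. Fos stood at 1016 against 377 CPM, Zfp36 at 677 against 183 CPM and Dusp1 at 830 against 234 CPM, and their part in the differences between the kinds was not tested.

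Other genes were higher in type 1 cells. Gzma, granzyme A, had 376 UMIs but in only 11 of 47 cells, and none in type 17 cells. Gramd3 had 382 UMIs in 40 type 1 cells and 1 in type 17 cells. Ly6c2, a surface protein of memory CD8 T cells, had 113 UMIs in 27 type 1 cells and none in type 17 cells. The same held for Klrc1, an NK receptor, with 59 UMIs in 23 cells. Of 15 genes of the receptor complex and its signalling, 4 stood higher in type 17 cells and 11 in type 1 cells. Their median was -1.66 log2 units, type 17 over type 1, against -0.10 for all genes with at least 20 UMIs. Zap70 and Cd247 were higher in type 17 cells, at 254 against 104 CPM and 999 against 557 CPM. Themis had 169 UMIs in type 1 and 4 in type 17 cells, Lck 81 and 2, Cd2 85 and 2, and Cd28 92 and 2.

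The gamma-delta share of T cells was 1.55% in control (exact binomial 95% interval 0.625 to 3.16%) and 0.775% (0.481 to 1.18%) in 2DG. It was 0.507% (0.284 to 0.834%) in 2FF and 0.231% (0.0847 to 0.501%) in anti-PD-L1. With the antibody it was 0.373% (0.179 to 0.685%) beside 2DG and 0.746% (0.408 to 1.25%) beside 2FF. The interval of control lies above that of anti-PD-L1 and overlaps those of the other 4 libraries, and with 1 mouse a group the spread between mice is unknown. The macrophage limit took anti-PD-L1 from 10 cells to 6 and left all 7 cells of control. Before it, the Cd8 condition took anti-PD-L1 from 16 cells to 11 and 2DG from 59 to 25, and left control at 7. The part of these limits in the shares was not tested. Counting members without a Trac UMI alone gave 0.304% in 2FF (9 cells) and 0.154% in anti-PD-L1 (4 cells). The order depends on the denominator. Of all kept cells, control had 0.0771% and anti-PD-L1 0.0682% gamma-delta T cells, the lowest shares, and 2DG 0.273%, the highest.

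Type 17 cells, those under both lists included, were 3 of 7 in control, 5 of 21 in 2DG, 5 of 15 in 2FF, 3 of 6 in anti-PD-L1, 4 of 10 with 2DG beside the antibody and 5 of 14 with 2FF beside the antibody. In percent this ran from 23.8% (8.22 to 47.2%) in 2DG to 3 of 6 cells (11.8 to 88.2%) in anti-PD-L1, and all 6 intervals overlap. With 1 mouse a group, a difference between treatments in the makeup of these cells was not tested. Thinning each cell to 2000 UMIs gave 23.6% in 2DG and 49.9% in anti-PD-L1.

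**Figure D3:**
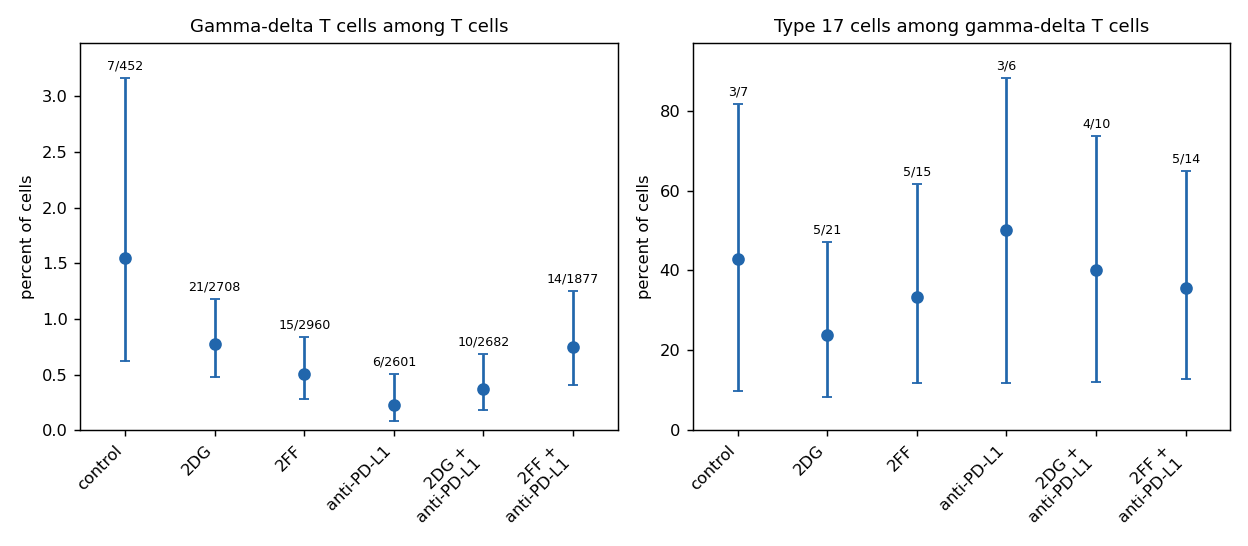
Left, gamma-delta T cells as a percent of T cells in each library; right, type 17 cells as a percent of gamma-delta T cells; numbers above the points are cells counted over cells in all, and bars are exact binomial 95% intervals for counting error. Control is highest at 1.55% with the widest interval on the left, and all intervals on the right overlap.

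Levels of single genes by treatment rest on few molecules. In library order Il17a stood at 321, 92.8, 816, 147, 295 and 362 CPM, from 14, 12, 61, 5, 15 and 29 UMIs. Cd163l1 stood at 779, 255, 750, 1002, 570 and 287 CPM. Both were detected in all 6 libraries, with Il17a highest in 2FF and lowest in 2DG, the library with the smallest type 17 share. Ifng, the gene of interferon gamma, stood at 22.9, 193, 93.7, 118, 275 and 175 CPM, lowest in control, where 1 UMI was found. Ccl5 stood at 757, 2467, 2142, 2624, 2910 and 3158 CPM, with control below the other 5 libraries. No fold change between treatments was computed, since 2DG alone reached the 20 cells set for one.

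The gamma-delta selection cut through a range of Trdc counts. Of 17 cells that met every other condition with 1 Trdc UMI, 5 were type 17, 12 were type 1 and 2 held Trac. Of the 11 members with exactly 2 Trdc UMIs none was type 17, 11 were type 1 and 2 held Trac. Type 17 cells held 3 to 12 Trdc UMIs (median 5) and type 1 cells 2 to 12 (median 4). Cells of the same type 17 character also lay outside the selection. Of 86 kept cells with at least 2 Cd163l1 UMIs, 23 were members and 64 held the Cd3 UMIs, and of these 64 there were 20 with no Trdc UMI, 16 of them with Trac. Of 46 cells with at least 2 Il17a UMIs, 16 were members and 14 held Cd3 but no Trdc UMIs, 9 of them with Trac. The members accounted for 136 of the 314 Il17a UMIs and 209 of the 604 Cd163l1 UMIs in kept cells. At least 2 type 17 UMIs were found in 0.295% of CD8 T, 0.842% of CD4 T and 0.0802% of NK cells, against 34.2% of gamma-delta T cells, and at least 2 type 1 UMIs in 99.6%, 86.4% and 99.4%, against 67.1%. B cells reached 46.4% on that list, which holds Blk, a kinase also known from B cells.

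To ask how these cells differ from other lymphocytes of the same mice, UMIs were summed per population and library in the 4 libraries with at least 10 gamma-delta T cells. These held 60 gamma-delta T cells (335003 UMIs), 5833 CD8 T cells, 1825 CD4 T cells and 958 NK cells. All 3 comparisons share the gamma-delta sums, and each used edgeR's quasi-likelihood test with the library as a block and Benjamini-Hochberg adjustment over all genes. Of 10711 genes that the selections did not use, 483 were higher (4.51%) and 782 lower (7.3%) in gamma-delta T cells than in CD8 T cells at an adjusted p under 0.05. Against CD4 T cells 466 were higher (4.35%) and 801 lower (7.48%), and against NK cells 390 were higher (3.64%) and 877 lower (8.19%). The median gene stood at -0.28 on the log2 scale in each comparison, so values near it are not changes. With size factors by relative log expression in edgeR that median was -0.13, -0.16 and -0.10, and the counts became 600 higher and 491 lower against CD8 T, 595 and 598 against CD4 T, and 546 and 518 against NK cells. All genes called higher in the first fit were also called with those size factors. Without 2FF plus anti-PD-L1 the genes lower than in CD8 T and CD4 T cells were 429 and 462, and without 2DG plus anti-PD-L1 those lower than in NK cells were 476. The populations were rebuilt from marker UMIs and may differ from the study's clusters, and the 4 mice differ in treatment.

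The genes of the type 17 program, a list of 24, were the group furthest above the background. Of 18 tested, 16 were higher and none lower than in CD8 T cells, 14 higher and 1 lower than in CD4 T cells, and 17 higher than in NK cells, with medians of 4.16, 2.84 and 5.30 log2 units. Il17a stood at 349 CPM over the 4 libraries against 0.161 in CD8 T cells, a log2 difference of 10.97 (SE 0.48, edgeR quasi-likelihood adjusted p = 9.46e-15), and at 1.11 CPM in CD4 T cells. NK cells had no Il17a or Il23r UMI, which put gamma-delta T cells at least 648-fold and 581-fold higher against a floor of 3 UMIs. Il23r, whose difference from CD4 T cells did not pass the test without 2FF (adjusted p = 0.0555, edgeR), ranged from 91.7 to 413 CPM over the 6 gamma-delta libraries, above the highest CD4 T library at 9.83. Cd163l1 was higher by 8.24, 10.99 and 8.92 log2 units than in CD8 T, CD4 T and NK cells, and Il1r1 by 8.65, 6.04 and 9.80. The levels of Il17a, Cd163l1 and Il1r1 in the 6 gamma-delta libraries did not overlap those in any library of the other 3 populations.

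Some members of that list were less particular. Zbtb16 stood at 175 to 1445 CPM over the 6 gamma-delta libraries, higher by 7.65 log2 units than in CD8 T cells but by 2.36 than in NK cells, whose libraries reached 113 CPM, a difference that did not pass the test without 2DG (adjusted p = 0.0875, edgeR). Il7r, the interleukin 7 receptor, was higher by 2.56, 1.99 and 4.49 log2 units. Maf was higher by 2.54 log2 units than in CD8 T cells and lower by 1.79 (log2 difference -1.79) than in CD4 T cells. Rora had differences of 0.11 and -0.06 from CD8 T and CD4 T cells, not past the test (adjusted p = 0.776 and 0.871, edgeR), and was higher by 1.93 than in NK cells. These differences average over unlike kinds, since Rora stood at 4326 CPM in type 17 cells and 158 CPM in type 1 cells over the 6 libraries. Ccr6, a chemokine receptor of many interleukin 17 cells, had 2 UMIs in all 73 cells.

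Genes of type 1 and cytotoxic function went the other way against CD8 T and NK cells. Of 23 tested, none was higher and 9 were lower than in CD8 T cells (median -1.13 log2), and 12 were lower than in NK cells (median -1.27). With DESeq2 1 was higher and 10 lower than in CD8 T cells, and 3 and 13 than in NK cells. Against CD4 T cells 4 were higher and 4 lower (median 0.08). Ifng was lower by 1.73 log2 units (-1.73, SE 0.20, adjusted p = 2.76e-07, edgeR) than in CD8 T cells, at 179 against 563 CPM. Its level in each gamma-delta library but 2DG plus anti-PD-L1 (275 CPM) lay below 196 CPM, the lowest of the CD8 T libraries. Nkg7 stood at 354 to 816 CPM, below every CD8 T library (1490 to 2570), with a log2 difference of -1.66. Ccl4, a chemokine, had -2.21. Against CD4 T cells Ly6c2 was higher by 4.26 and Klrk1, the activating receptor NKG2D, by 3.28 log2 units, both members that the CD8 T comparison did not call. All 265 Nkg7 UMIs lay in the 47 type 1 cells, whose own level, in cells chosen with this gene, was 952 CPM. Of the 65 Ifng UMIs 64 lay in them, at 230 CPM.

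**Figure D4:**
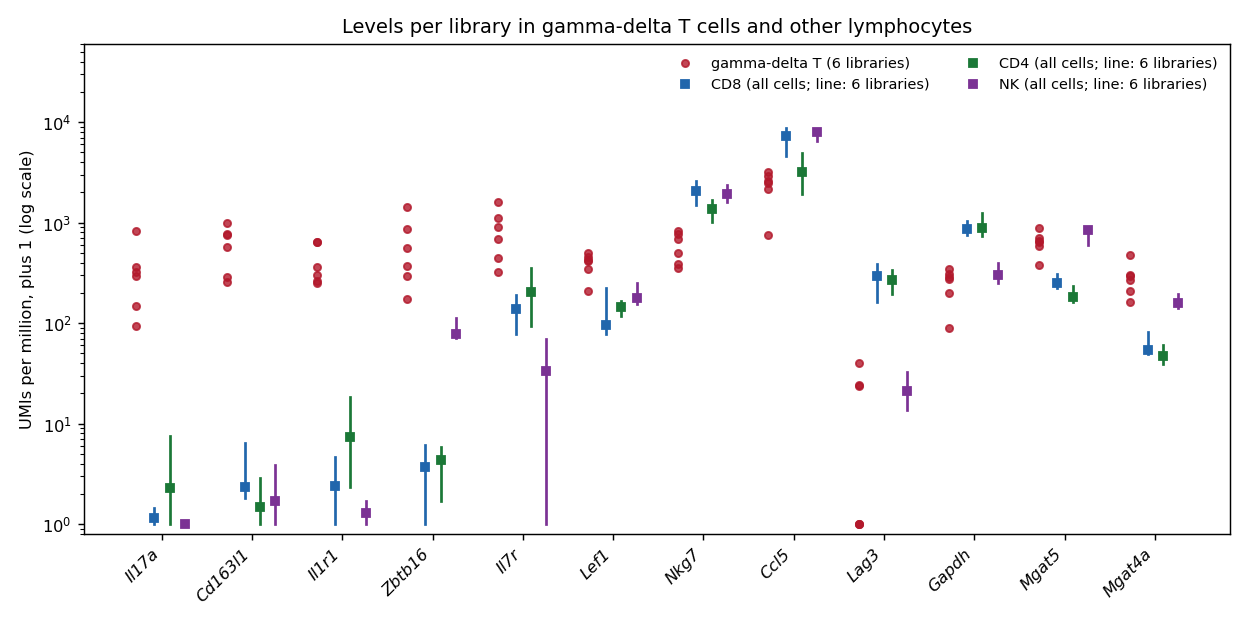
CPM plus 1 on a log scale for 12 genes; red points are the gamma-delta T cells of each of the 6 libraries, squares the pooled CD8 T, CD4 T and NK cells, and vertical lines their lowest to highest library. Il17a, Cd163l1 and Il1r1 show no overlap between gamma-delta T cells and the rest, Nkg7, Lag3 and Gapdh lie below both alpha-beta populations, and Mgat5 and Mgat4a lie above them.

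Cytokine receptors and homing genes were more often higher than lower. Of 22 cytokine receptor genes 9 were higher and 1 lower than in CD8 T cells, 9 and 1 than in CD4 T cells, and 8 and 4 than in NK cells, a count that includes Il23r, Il1r1, Il17re and Il7r of the type 17 list. Il18r1, a receptor subunit for interleukin 18, was higher by 1.12 log2 units and Ifngr2, of the interferon gamma receptor, by 2.79 than in CD8 T cells. In contrast Il12rb2, Il18rap and Il2rb were lower than in NK cells, by -2.24, -1.90 and -1.25 log2 units. Of 21 chemokine receptor, homing and residency genes 9 were higher and 2 lower than in CD8 T cells, 7 and 2 than in CD4 T cells (12 and 2 with DESeq2), and 9 and 5 than in NK cells (9 and 3 with size factors by relative log expression). Cxcr4 was higher by 2.11 and Cd69, a residency and activation marker, by 0.73 log2 units than in CD8 T cells, while Cxcr6 had -1.06. Ccr8, a chemokine receptor of tumor T cells, was lower than in CD4 T cells (-4.01).

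Genes of naive and recirculating lymphocytes were higher than in both alpha-beta populations, 4 of 7 tested in each comparison and none lower, whereas 2 were higher and 3 lower than in NK cells (4 and 2 with DESeq2). Lef1, a transcription factor of naive T cells, stood at 344, 418, 495, 206, 452 and 424 CPM in library order. CD8 T libraries ranged from 77.2 to 224 CPM, so 1 gamma-delta library, anti-PD-L1, lay within their range, and the log2 difference was 2.03 (SE 0.18, adjusted p = 5.78e-09, edgeR). Tcf7 was higher by 2.03, Klf2 by 2.19 and S1pr1 (the receptor for egress from tissue) by 2.99 log2 units. Lef1 was found in both kinds of cell, at 296 CPM in type 17 and 420 CPM in type 1 cells.

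T cell receptor signalling genes split. Of 18, 3 were higher and 7 lower than in CD8 T cells, 3 and 8 than in CD4 T cells (5 and 8 with DESeq2), and 8 and 5 than in NK cells. Lower than in both alpha-beta populations were Themis, a signalling adaptor of thymocyte selection (-2.15 log2 units against CD8 T cells), Cd6 (-2.35 and -2.53), Cd5 (-1.76 and -2.94), both inhibitors of receptor signalling, and Lck (-0.87 and -0.79). Themis had no UMI in the anti-PD-L1 gamma-delta cells and 387 to 734 CPM in the other 5 libraries. Lck and Themis were uneven between the kinds, at 16.9 and 33.9 CPM in type 17 cells and 291 and 607 CPM in type 1 cells. Blk, a gene of the list that set the type 17 kind, was higher by 8.74 and 8.38 log2 units. Of 7 alpha-beta T cell markers 6 were lower in each alpha-beta comparison, among them Trac by -2.73 and -2.75 and Trbc2 by -1.26 and -1.17 log2 units.

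Among inhibitory and costimulatory receptor genes more were lower than higher against both alpha-beta populations. Of 12 inhibitory receptor genes none was higher and 7 were lower in each, and of 10 costimulatory genes 1 was higher and 5 lower than in CD8 T cells and none higher and 7 lower than in CD4 T cells. Against NK cells 1 inhibitory gene was higher and 2 were lower (3 and 2 with size factors by relative log expression, 5 and 2 with DESeq2), and 4 costimulatory genes were higher and 1 lower. Lag3 had 6 UMIs in all 73 cells, at 22.9, 23.2, 0, 0, 39.3 and 0 CPM in library order, against 162 to 390 CPM in CD8 T libraries. Its log2 difference was -4.36 (SE 0.56, adjusted p = 6.78e-05, edgeR). Pdcd1, the gene of PD-1, was lower than in CD8 T and CD4 T cells by -1.12 and -1.62 log2 units and higher than in NK cells by 4.79. In 2DG plus anti-PD-L1 its level of 275 CPM lay above the highest CD8 T library (270.2), and without 2DG or without 2FF the difference from CD8 T cells was not past the test (highest adjusted p = 0.115, edgeR). Tnfrsf9, the receptor 4-1BB, had -2.87 and -3.19 log2 units, and Tnfrsf4, OX40, had 1 UMI in the gamma-delta sums against 251 CPM in CD4 T cells (-6.51). Tnfrsf25, the death receptor DR3, was the costimulatory gene that was higher than in CD8 T cells, by 4.28.

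Glycolysis was represented by 16 genes. None was higher and 9 were lower than in CD8 T cells, none higher and 12 lower than in CD4 T cells, and 1 higher and 5 lower than in NK cells, with medians of -1.32, -1.43 and -0.62 log2 units. With size factors by relative log expression the counts lower were 9, 10 and 2. Gapdh stood at 275, 348, 308, 88.4, 197 and 287 CPM, below every CD8 T library (760 to 1032), with a log2 difference of -1.64 (SE 0.15, adjusted p = 5.62e-09, edgeR). Against NK cells it was -0.34, not past the test (adjusted p = 0.202, edgeR). Ldha, Pkm, Aldoa and Pgk1 were lower than in CD8 T cells by -1.18, -1.30, -1.38 and -1.73 log2 units. The 2 kinds of gamma-delta cells were alike in Gapdh, at 245 CPM in type 17 and 277 CPM in type 1 cells with overlapping intervals. Over the libraries Gapdh was lowest in anti-PD-L1 and highest in 2DG.

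Enzymes that build branched N-glycans and fucosylated glycans, the targets of the study, changed in few members. Of 15 tested 2 were higher and 1 lower than in CD8 T cells, 3 and 1 than in CD4 T cells, and 1 and 1 than in NK cells. The median of the list was -0.14, -0.29 and -0.58 log2 units against -0.28 for all genes, and with size factors by relative log expression the first turned to 0.01. Mgat5, the enzyme that adds the branch bound by the lectin PHA-L, stood at 711, 657, 375, 590, 649 and 886 CPM in library order. CD8 T libraries ranged from 224 to 308 CPM and CD4 T libraries from 162 to 233 CPM, so all 6 gamma-delta values lay above both. The log2 differences were 1.24 (SE 0.14, adjusted p = 3.42e-07) and 1.79 (SE 0.15, adjusted p = 6.55e-10, edgeR). Against NK cells it was -0.61, not past the test without 2FF, without 2DG plus anti-PD-L1 or with these populations fitted alone (highest adjusted p = 0.156, edgeR). Mgat4a, another branching enzyme, was higher by 2.50 and 2.81 log2 units and also lay above every CD8 T and CD4 T library. In type 17 cells Mgat5 stood at 999 CPM and in type 1 cells at 482 CPM, and Mgat4a at 457 and 201 CPM. Both kinds therefore lay above the pooled CD8 T values of 249 and 53.2 CPM. Fut8, which adds core fucose, was at -0.13 and -0.24 log2 units, not past the test (adjusted p = 0.716 and 0.461, edgeR).

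**Figure D5:**
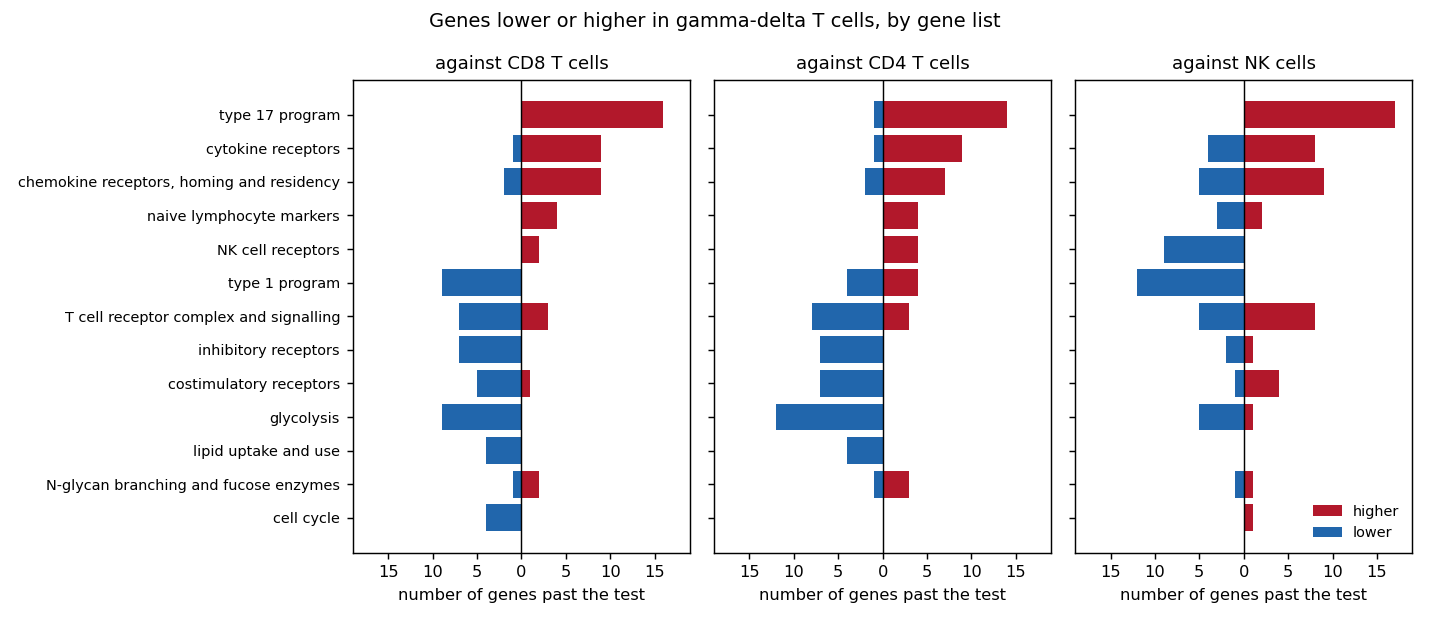
Number of genes of 13 lists that were higher (red, right) or lower (blue, left) in gamma-delta T cells at an adjusted p under 0.05, against CD8 T, CD4 T and NK cells. The type 17 program has 16, 14 and 17 genes on the right, and glycolysis 9, 12 and 5 on the left.

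NK cell receptors had 2 of 15 genes higher than in CD8 T cells (median -0.09 log2, but 0.06 with size factors by relative log expression), 4 than in CD4 T cells (9 with DESeq2) and 9 lower than in NK cells. Klra8, an activating receptor of the Ly49 family, whose genes resemble each other closely, had no UMI in the gamma-delta sums and was at least 40.5-fold lower than in NK cells. Of 13 lipid genes 4 were lower than in each alpha-beta population (2 than in CD8 T cells with size factors by relative log expression), and none passed against NK cells (4 at an unadjusted p under 0.05 in edgeR, none adjusted with DESeq2). Of 16 cell cycle genes 4 were lower than in CD8 T cells and none passed against CD4 T cells (5 at an unadjusted p under 0.05 in edgeR, none adjusted with DESeq2). Against NK cells 1 cell cycle gene was higher and none lower. The cell cycle list summed to 149 UMIs in the 2DG gamma-delta cells and to 9 to 17 UMIs in the other 5 libraries. Of the 23 Mki67 UMIs in 2DG, 21 lay in 1 type 1 cell of 13806 UMIs. Of 19 interferon response genes 3 were higher, among them Igtp (1.88), and 1 lower than in CD8 T cells. The counts were 2 and 1 against CD4 T cells, and 5 and none against NK cells (8 and none with DESeq2). Of 20 dissociation and stress genes 9 were higher and 4 lower than in CD8 T cells (median 0.48), 8 and none than in CD4 T cells, and 1 and 7 than in NK cells. With size factors by relative log expression 9 were higher and 1 lower than in CD8 T cells, and 5 higher and 4 lower than in NK cells. Fos and Zfp36 were higher by 1.19 and 1.64 log2 units than in CD8 T cells, calls lost without the library block (adjusted p = 0.123 and 0.139, edgeR), and the part of tissue handling was not tested. Of 17 lineage transcription factors 6 were higher and 3 lower than in CD8 T cells (6 and 5 with DESeq2). Against CD4 T cells 4 were higher and 4 lower, and against NK cells 8 and 5. Id2 was lower in all 3 comparisons (-1.40, -1.34 and -1.82).

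Markers of neutrophils, tumor epithelium, erythroid cells and mast cells were scarce in the 73 cells. Of 9 neutrophil markers 8 UMIs were found in all, of 7 tumor epithelium markers 2, of 5 erythroid markers 1 and of 6 mast cell markers none. B cell markers summed to 34 UMIs over 7 genes, with Ighm the most abundant at 15. Of 3 tested, 2 were higher than in CD8 T cells (median 2.09 log2 units) and 1 than in CD4 T cells. Against NK cells 1 was higher, and none was lower in any comparison. The 13 macrophage and monocyte markers summed to 261 UMIs, 92 of them Fcer1g, a signalling chain that NK and innate-like T cells also use. Fcer1g lay mainly in type 1 cells, 89 UMIs against 2 in type 17 cells. NK cell markers summed to 164 UMIs over 8 genes with Klra7 the most abundant. Summed over the list they ranged from 138 to 914 CPM per library, highest in anti-PD-L1, and Ncr1, NKp46, had 14 UMIs in 5 cells. The part of these markers in the results above was not tested.

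Genes were named where the difference was past the test, had the same sign in every library and rested on at least 100 UMIs in the higher population, with the genes of the gate and the receptor chains left out. Among the 10 such genes with the highest log2 difference in each comparison, Il17a, Adam12, Il23r, Il1r1, Cd163l1 and Igf1r were named in all 3. Zbtb16 and Clnk, a signalling adaptor, were named against CD8 T and CD4 T cells, Cpm against CD8 T and NK cells, Aff3 against CD8 T cells, Fgf13 and Gzma against CD4 T cells, and Themis, Bcl11b and Il7r against NK cells. Adam12 stood at 150 to 943 CPM over the 6 libraries, higher by 10.17, 6.42 and 6.50 log2 units. Clnk separated the alpha-beta populations from gamma-delta T cells (5.89 and 5.56 log2 units) and stood at 951 CPM in NK cells, above the 427 CPM of gamma-delta T cells. The 3 comparisons share the same gamma-delta cells, so a gene named in each is not found 3 times over. At the low end the genes had no UMI in the gamma-delta sums. Against CD8 T cells they were led by Gm44174 (at least 26.2-fold lower), Serpine2, a protease inhibitor (at least 13.7-fold), and Slc17a6 (at least 12.2-fold), of which the last 2 were not called without the library block. Against CD4 T cells Penk, the precursor of enkephalins, was at least 32.4-fold and Igfbp7 at least 11.2-fold lower, and against NK cells D5Ertd615e at least 11.3-fold. Of the 10 lowest genes in the alpha-beta comparisons Serpine2, Slc17a6, Tff1 and Ptprk were on both lists.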

How the data were processed

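Single-cell 3′ libraries of 6 mice, 1 per treatment, were read as raw UMI counts per gene and cell that the authors deposited without normalization for 32285 genes. Per the file headers they were made with Cell Ranger 7.0.0, while the submitters' processing notes name version 3.1.0, both on mm10. Of 57078 deposited cells 51633 passed the limits of 250 genes and 5% mitochondrial UMIs. Gamma-delta T cells, the gene lists and the limits were chosen with earlier results of these data known.

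CD8 T cells (at least 2 Cd3 and 2 Cd8 UMIs), CD4 T cells (at least 2 Cd3 UMIs and 1 Cd4 UMI) and NK cells (no Cd3 UMI, at least 2 of Ncr1 and Klrb1c) had no Cd79a UMI and at most 5 macrophage UMIs. The alpha-beta populations had no Trdc UMI, and none of the populations a Foxp3 UMI. T cells, the denominator of the shares, numbered 13280. UMIs were summed per population and library and fitted together with edgeR 4.0.16 (R 4.3.3), quasi-likelihood test, TMM size factors and the library as a block, on 10726 genes in 4 libraries with 9 residual degrees of freedom. Standard errors were taken from the log2 difference and the test statistic and are approximate. The spread of a gene was estimated over all populations together. The sums of 60 gamma-delta T cells thus share it with those of 5833 CD8 T cells, and whether they vary more was not tested. Genes of the selections were left out of the results. Control and anti-PD-L1, with under 10 gamma-delta T cells, were left out of the fit. Named were the 10 highest and 10 lowest genes of each comparison among those called with the same sign in every library and at least 100 UMIs in the higher population, leaving out genes of the gate, receptor, immunoglobulin, haemoglobin, mitochondrial and ribosomal protein genes. Intervals of shares are exact (Clopper-Pearson, 95%) and of levels exact Poisson, for counting error only. Genes at 0 UMIs were set to a floor of 3 UMIs over the group. Doublets were scored by neighbours among simulated doublets and kept. Alternatives were other size factors, DESeq2 1.42.0, other limits and each library left out. The rule for genes that differ between the kinds, the fit of all 6 libraries and the selection on Tcrg-C1 were chosen after seeing the data. The scripts were tested on simulated data. Of the listed genes 2 were not in the files. Some genes of the lists enter the counts but are not reported here by name.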

Additional observations from a re-analysis of the deposited data

How the results depend on the processing

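None of the 60 named gene comparisons changed direction in 14 settings. Among other list genes that had been called, Trac turned direction against NK cells when members with a Trac UMI were left out, and H2-Ab1 in all 3 comparisons with doublets removed. With size factors by relative log expression the medians of the glycan enzymes and of the NK receptors against CD8 T cells changed sign, and more genes were called higher than lower against CD8 T and NK cells. The number of genes called depended on the scaling and on the model. DESeq2, which differs in both size factors and test, called 821, 756 and 759 genes higher than in CD8 T, CD4 T and NK cells. It called 472 and 498 lower than in CD8 T and NK cells. With size factors by relative log expression as the only change, edgeR called 600, 595 and 546 higher. Size factors by relative log expression gave 491 and 518 lower than in CD8 T and NK cells. Fitting gamma-delta T and NK cells alone gave 360 genes lower. The fit of all 6 libraries, chosen after seeing the data, gave 540 higher and 984 lower than in CD8 T cells.

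Leaving out each library in turn gave 336 to 423 genes higher and 429 to 615 lower than in CD8 T cells, 317 to 417 and 462 to 645 than in CD4 T cells, and 272 to 341 and 476 to 632 than in NK cells. The lower counts moved by over 1.5 times without 2FF (442, 524 and 559 lower), without 2DG plus anti-PD-L1 (470, 520 and 476) and without 2FF plus anti-PD-L1 (429, 462 and 490). Of the named gene comparisons, 15 lost their call in at least 1 of 14 settings, 9 of them under a setting other than leaving out a library. Gzma against CD4 T cells and Serpine2 in both comparisons lost it without 2DG and without 2DG plus anti-PD-L1.

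Without members holding Trac the gamma-delta share of T cells was 1.33%, 0.591%, 0.304%, 0.154%, 0.298% and 0.639% in library order. With all kept cells as denominator the gamma-delta share was 0.0771% in control, 0.273% in 2DG, 0.163% in 2FF, 0.0682% in anti-PD-L1, 0.111% in 2DG plus anti-PD-L1 and 0.179% in 2FF plus anti-PD-L1. The type 17 share moved by less than its counting interval in all 48 settings and libraries tried. As a mean over cells Ccl5 stood at 2885 CPM in 2DG and 2718 CPM in 2FF plus anti-PD-L1. The cause of these changes was not tested. Ratios between treatments with another added value were not run, since too few cells allowed one. No paired analysis was possible between treatments because each is 1 library, while the comparisons of populations had the library as a block. Depth limits the levels per library: 3 UMIs correspond to 23.2 CPM in 2DG and 88.4 CPM in anti-PD-L1.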

Other observations

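The selection left out cells with Trdc and Tcrg UMIs that also held Cd8 UMIs, and these lay mostly in 1 library. Of cells with the Cd3, Trdc and Tcrg UMIs, 34 of 59 in 2DG held a Cd8 UMI (57.6%, exact binomial 95% interval 44.1 to 70.4%), against 12 of 73 in the other 5 libraries together (16.4%, 8.79 to 27.0%). Of the 34 cells 33 held Cd8b1, the beta chain of the co-receptor, 30 held Trac and 34 held Trbc1, which 53.6% of the CD8 T cells of that library held. They held a median of 6.5 Trdc UMIs.

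Segments of both receptor kinds were frequent in these 34 cells. Trbv26, a beta chain segment, had a UMI in 9 of them (26.5%, 12.9 to 44.4%), in 1 of the 1236 CD8 T cells of the library (0.0809%) and in 0 of its 21 gamma-delta T cells. Tcrg-V1 had a UMI in 11 of the 34 (32.4%), in 0.647% of those CD8 T cells and in 3 of the 21 gamma-delta T cells. Trgv2 had one in 24 of the 34, against 16.7% of the CD8 T cells. The 34 cells were chosen by Trdc and Tcrg UMIs and the CD8 T cells by no Trdc UMI. Their difference in gamma chain segments therefore follows in part from the selection. Other beta chain segments than Trbv26 are not reported here. All 34 were type 1 by the list used above, as were 99.6% of CD8 T cells over all libraries. Mki67, a gene of dividing cells, had a UMI in 10 of the 34 (29.4%) and in 24.4% of the CD8 T cells. The 34 cells come from 1 mouse, and whether they share a receptor was not tested.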
